A study of Mus musculus with 19 samples.

Results

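CD5L is a secreted protein whose building blocks are cysteine-rich domains of the scavenger receptor type (SRCR domains), and the genes described here are Cd5l and 9 genes for receptors of the same domain family or of the wider scavenger receptor classes. They were chosen by name, as the rows of the count table for Cd5l, Cd5, Cd6, Cd163, Marco, Msr1, Cd36, Scarb1, Stab1 and Stab2, and all 10 were found among the 54532 genes of the table. RNA was sequenced from 19 whole kidneys, given in the sources as obstructed, of male mice aged 8 to 9 weeks on a C57BL/6J background, taken on day 12 after the left ureter was tied (unilateral ureteral obstruction, UUO). The groups were WT PBS (5 mice), WT rCD5L (5 mice), CD5L KO PBS (4 mice) and CD5L KO rCD5L (5 mice). rCD5L was recombinant mouse CD5L made in CHO-S cells and injected into the peritoneum every day at 0.5 mg per mouse, and mice of all 4 groups underwent the operation, so there is no group without it. How the CD5L KO line was made is not given in the sources used here, and the mice were balanced between groups without formal randomisation or blinding.

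Scavenger receptors bind modified lipoproteins, dying cells, microbes and waste molecules and carry them into the cell. CD5L is made mainly by tissue macrophages, travels in blood on IgM, and is released from it in injury to coat debris that injured tubules and phagocytes then clear. CD36 and MSR1 are among the receptors that have been linked to its uptake. CD5 and CD6 are lymphocyte surface proteins that share the SRCR fold with CD5L, CD163 clears haemoglobin bound to haptoglobin, SCARB1 takes up cholesterol from high-density lipoprotein, and STAB1 and STAB2 clear hyaluronan and other ligands on sinusoidal endothelium and, for STAB1, on macrophages.

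Total counts ranged from 17917491 to 23847090 per kidney, and a count of 0 allowed up to 0.119 to 0.23 CPM (counts relative to the total count of the kidney), which covers counting error only. Levels are given as CPM scaled by trimmed-mean (TMM) factors unless FPKM is named. CD5L KO rCD5L replicate 4 stood apart from the other kidneys of its group. Its TMM factor was 0.682, where the other 18 lay between 0.874 and 1.07. Its 9 proximal tubule markers summed to 51490 CPM against 4172 to 9294 CPM in the other 4 kidneys of the group. Its 10 macrophage markers summed to 830.6 CPM against 2590 to 2975 CPM, and its 10 T cell markers to 24.89 CPM against 61.8 to 89.6 CPM. Whether this kidney was obstructed like the others was not tested. In comparisons that use it, the main fold changes printed for the 10 genes are given with and without it. Not every gene has its fold change printed in each of these comparisons.

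The promoters of the deleted gene and of the 2 receptor genes that passed the test in CD5L KO kidneys are shown first, from 250 bases before to 50 bases after the RefSeq start on GRCm38.p6. RefSeq sequences were found for 7 of the 10 genes. The letters searched on both strands were GAGGAA, the core of sites for the myeloid factor PU.1, AGGTCA, the nuclear receptor half-site, and TATAAA, the TATA box, and matches are in capitals.
Cd5l promoter, chr3:87357631-87357930, plus strand: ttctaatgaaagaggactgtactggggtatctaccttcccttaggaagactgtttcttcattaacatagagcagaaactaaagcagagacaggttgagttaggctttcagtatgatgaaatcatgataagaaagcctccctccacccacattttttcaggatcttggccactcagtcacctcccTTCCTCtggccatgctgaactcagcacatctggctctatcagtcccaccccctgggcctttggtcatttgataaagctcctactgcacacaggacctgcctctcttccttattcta
Stab1 promoter, chr14:31168592-31168891, minus strand: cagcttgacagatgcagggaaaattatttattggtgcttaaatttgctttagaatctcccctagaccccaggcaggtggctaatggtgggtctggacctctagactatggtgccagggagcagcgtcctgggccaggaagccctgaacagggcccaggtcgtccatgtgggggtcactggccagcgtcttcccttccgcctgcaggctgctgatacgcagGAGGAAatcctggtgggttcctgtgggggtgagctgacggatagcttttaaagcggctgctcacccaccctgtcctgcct
Cd36 promoter, chr5:17835847-17836146, minus strand: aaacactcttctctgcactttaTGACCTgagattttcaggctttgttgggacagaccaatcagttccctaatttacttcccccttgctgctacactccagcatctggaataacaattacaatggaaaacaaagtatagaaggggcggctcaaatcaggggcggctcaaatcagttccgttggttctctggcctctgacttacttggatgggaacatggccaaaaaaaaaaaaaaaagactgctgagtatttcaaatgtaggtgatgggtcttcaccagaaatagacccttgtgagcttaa
The Cd5l and Stab1 windows each held GAGGAA on 1 strand, in Cd5l on the opposite strand 66 bases before the start site and in Stab1 on the gene's own strand 30 bases before it. The Cd36 window held AGGTCA on the opposite strand 228 bases before the start site. Among 32851 promoters of this length, 28.3% held GAGGAA, 16.3% AGGTCA and 13.6% TATAAA on either strand, so these matches are common, and they describe letters, not bound sites. The Cd36 window lies inside the annotated span of the gene, at an internal start.

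Measured per length, the receptors of this family covered a wide range in the obstructed kidney. In WT mice given PBS, Cd36 was highest with 30.2 ± 4.08 FPKM (SD, n = 5), followed by Stab1 with 13.5 ± 2.33 FPKM, Scarb1 with 5.22 ± 0.357 FPKM and Msr1 with 2.07 ± 0.528 FPKM. The ranges of these neighbours did not overlap. Cd163 with 1.28 ± 0.275 FPKM, Cd5 with 1.21 ± 0.613 FPKM and Cd6 with 1.02 ± 0.544 FPKM overlapped and could not be ordered. The deposited lengths of Cd5 and Cd6, 2069 and 3404 bases, were below their 4928 and 7968 exonic bases in GENCODE vM21, so their FPKM would be lower on that annotation. Cd5l with 0.167 ± 0.0603 FPKM, Stab2 with 0.146 ± 0.0205 FPKM and Marco with 0.0908 ± 0.142 FPKM formed the lowest group, again with overlapping ranges. The order from Cd36 to Stab1, Scarb1 and Msr1 was the same in all 4 groups, although in CD5L KO mice given rCD5L the ranges of Stab1 and Scarb1 overlapped, through replicate 4. In whole tissue, fewer cells of a type and less RNA per cell cannot be told apart.

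**Figure D1:**
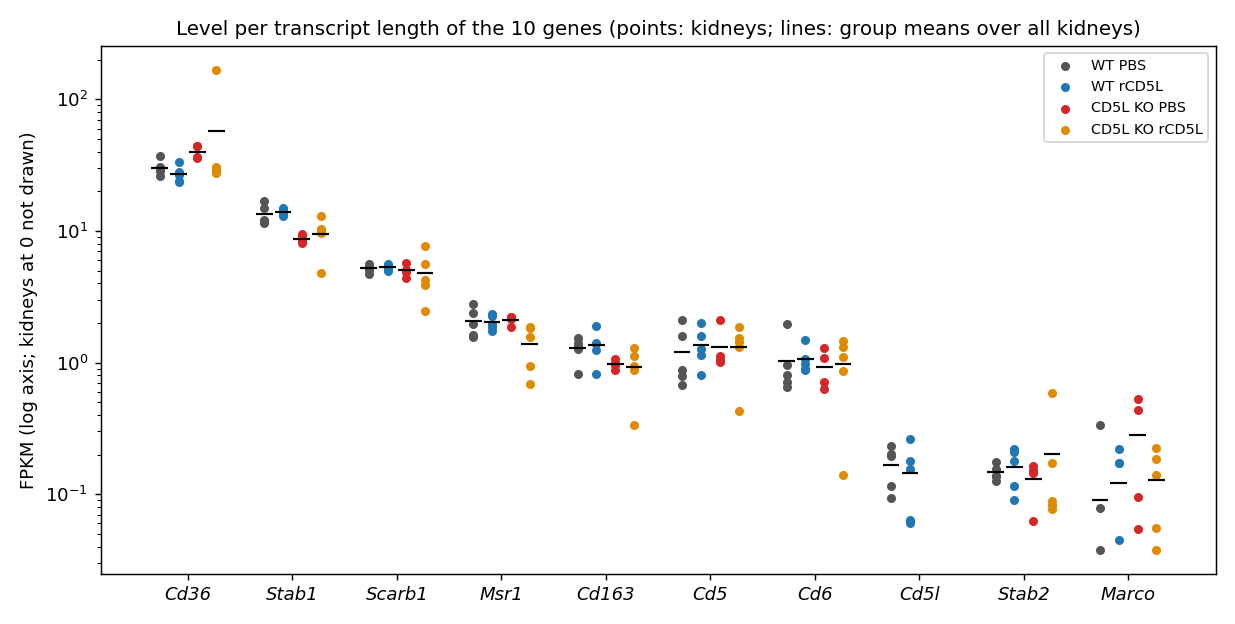
FPKM on a log axis for the 10 genes, ordered by their mean in WT mice given PBS, with 1 point per kidney and a line at each group mean. Cd36, Stab1, Scarb1 and Msr1 lie in that order in every group, and Cd5l, Stab2 and Marco lie lowest, with the 9 CD5L KO kidneys at 0 for Cd5l and therefore not drawn.

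Cd5l itself (ENSMUSG00000015854, chromosome 3 of GRCm38, 87357881 to 87371073, plus strand) was the check of the genotype. It had 0 counts in all 4 CD5L KO kidneys given PBS and in all 5 given rCD5L. In WT mice given PBS, it had 13, 12, 6, 9 and 5 counts, and in WT mice given rCD5L 9, 3, 15, 3 and 11 counts. Every WT kidney therefore lay above every CD5L KO kidney, and the genotype labels of the 19 kidneys held for this gene. It cannot check which kidneys were given rCD5L or PBS. Against the 3 counts that a total of 0 allows in a group, Cd5l was at least 11.7-fold higher in WT than in CD5L KO mice given PBS and at least 12.6-fold higher with rCD5L.

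The level of Cd5l RNA in the WT kidney was close to the detection limit. It was 0.414 ± 0.149 CPM (SD, n = 5) with PBS and 0.354 ± 0.208 CPM (SD, n = 5) with rCD5L. The difference of -0.0606 CPM was within the spread of the kidneys (exact permutation test, two-sided, p = 0.611, where 5 against 5 can reach 0.00794). The injected product is a protein, so the counts measure the mouse's own transcript. At this depth Cd5l failed the low-count filter in each comparison of 2 groups. Of 8 markers of the resident macrophages of liver, spleen and peritoneum, which are known for making CD5L, 1 (Clec4f) was at 0 in every kidney of 3 groups. The list summed to 29.3 to 41.1 CPM in WT mice given PBS, against 2234 to 2907 CPM for the 10 general macrophage markers.

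**Figure D2:**
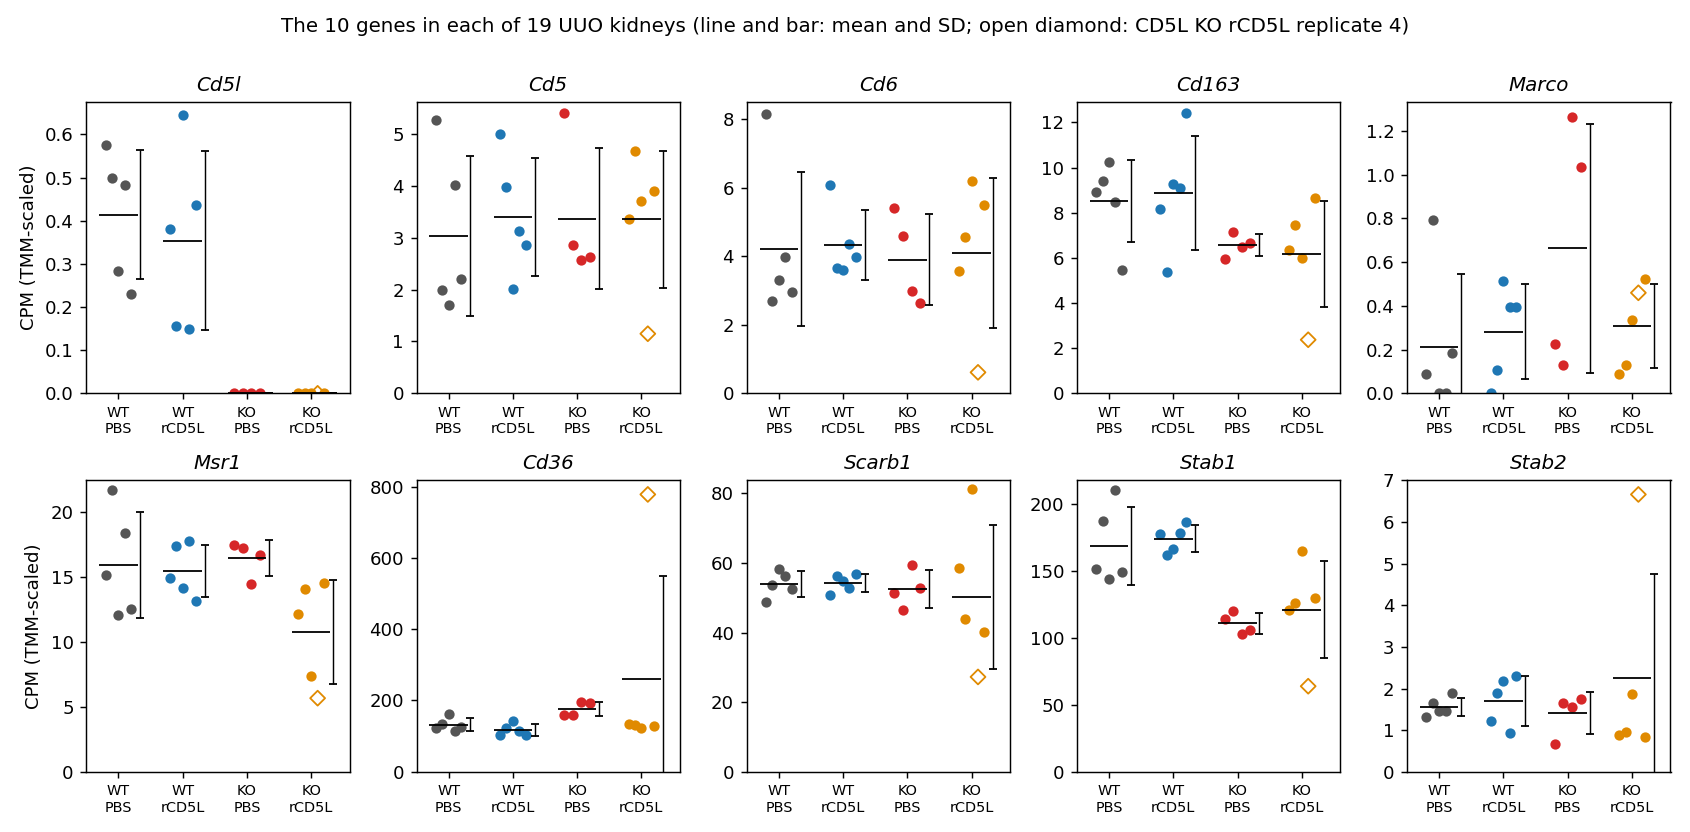
CPM of each of the 10 genes in each kidney on linear axes from 0, with the mean of each group as a line and its SD as a bar, cut at 0 where it would fall below. Stab1 is lower and Cd36 higher in the 4 CD5L KO kidneys given PBS than in most WT kidneys, Cd5l is at 0 in the 9 CD5L KO kidneys, and the open diamond marks CD5L KO rCD5L replicate 4, which has the highest Cd36 and Stab2 and the lowest Stab1.

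To ask which receptors differed when CD5L was missing, CD5L KO and WT mice given PBS were compared with edgeR's quasi-likelihood test, and genes with a Benjamini-Hochberg adjusted p under 0.05 over all genes tested were called. Stab1 fell and Cd36 rose, and the other 6 genes tested did not pass. Of all 17579 genes tested, 10.5% were called, against which 2 of these 8 is too small a count to be read as a property of the group. Cd5l and Marco did not pass the low-count filter and are described by their counts.

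Stab1 (ENSMUSG00000042286, chromosome 14, 31139013 to 31168641, minus strand) encodes stabilin-1, the scavenger receptor of sinusoidal and lymphatic endothelium and of tissue-repair macrophages. It measured 114, 120, 103 and 106 CPM in the CD5L KO kidneys given PBS. In WT kidneys given PBS it measured 151, 187, 144, 211 and 150 CPM. All 4 CD5L KO kidneys lay below all 5 WT kidneys. The means were 110.8 ± 7.80 CPM (SD, n = 4) and 169 ± 29.1 CPM (SD, n = 5), a log2 fold change of -0.61 (SE 0.110, edgeR adjusted p = 0.00721). Stab1 was the only one of the 8 genes whose groups did not overlap, where 14.1% of all genes tested did not overlap in this comparison.

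Cd36 (ENSMUSG00000002944, chromosome 5, 17781690 to 17888801, minus strand) encodes the fatty acid translocase, a class B scavenger receptor of macrophages, adipocytes, microvascular endothelium and tubules. It measured 160.0, 161, 194 and 193 CPM in CD5L KO kidneys and 123, 133, 161.3, 115 and 126 CPM in WT kidneys. The groups overlapped through a single WT kidney, replicate 3. The means were 177 ± 19.4 CPM (SD, n = 4) and 132 ± 17.7 CPM (SD, n = 5), a log2 fold change of 0.42 (SE 0.0973, edgeR adjusted p = 0.0191).

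Both calls depended on the fit. With all 19 kidneys in 1 fit, neither passed (Stab1 -0.61, adjusted p = 0.170, and Cd36 0.43, adjusted p = 0.790). With 18 in 1 fit, CD5L KO rCD5L replicate 4 being left out, both did (Stab1 -0.61, adjusted p = 0.00608, and Cd36 0.42, adjusted p = 0.0365). The common biological coefficient of variation was 12.6% in the fit of the 2 groups, 22.1% with 19 kidneys and 15.6% with 18, the last a fit added after seeing the data. Cd36 missed the threshold without WT replicate 4 (0.37, adjusted p = 0.0501) or without CD5L KO replicate 4 (0.38, adjusted p = 0.0544).

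Several measures moved together with these calls. Fold changes fell with gene length across the genes tested (Spearman rho = -0.277 over 17579 genes, which are not independent replicates), from a median of 0.13 in the shortest of 5 equal bins to -0.08 in the longest, which begins at 6859 bases. Stab1 is 10288 bases long and Cd36 3590. After an offset for length, an alternative chosen after seeing the data, the log2 fold changes were -0.52 for Stab1 (adjusted p = 0.0157) and 0.41 for Cd36 (adjusted p = 0.0281). Stab1 shares 112 exonic bases with Nt5dc2 on the other strand, and Nt5dc2 was at -0.26 (adjusted p = 0.0957). In the other comparisons, all kidneys kept, Nt5dc2 was at 0.33 between genotypes given rCD5L (edgeR adjusted p = 0.340). For rCD5L against PBS it was at 0.55 in CD5L KO mice, without overlap (adjusted p = 0.897), and -0.04 in WT mice. Its part in the values of Stab1 was not tested.

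Cell type markers were compared too, beside the 10.5% called among all genes tested. Of 9 endothelial markers, 4 fell and 0 rose, and all 9 had fold changes below 0, with a median log2 fold change of -0.31. Pecam1, an adhesion molecule of endothelial junctions, was at -0.38 (adjusted p = 0.00652) and Cdh5, the endothelial cadherin, at -0.43 (adjusted p = 0.0110). The list summed to 732.3 to 824.0 CPM in CD5L KO mice and 865.2 to 979.5 CPM in WT mice. Of 10 macrophage markers, 1 fell (Csf1r, the receptor for the growth factor of macrophages, at -0.47, adjusted p = 0.0386), and the list summed to 2016 to 3274 CPM and 2234 to 2907 CPM. Of 5 lymphatic markers 1 fell (Flt4), and of 9 proximal tubule markers 1 rose (Slc13a1). All 7 adipose markers had fold changes above 0 (median 0.77), with 1 called, Fabp4, and summed to 188.0 to 398.6 CPM in CD5L KO mice and 134.9 to 315.7 CPM in WT mice. The single calls in the macrophage, lymphatic, proximal tubule and adipose lists are too few to be set apart from the 10.5% of all genes. With the length offset, and with the deposited FPKM and limma, Csf1r and Flt4 were not called and 3 endothelial markers were. The macrophage marker Cd68 was called lower with the length offset. With all 19 kidneys in 1 fit, 0 markers of these 5 lists were called. The part of these cell types in the changes of Stab1 and Cd36 was not tested.

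The other 6 genes tested did not pass in this comparison. Cd163 (ENSMUSG00000008845, chromosome 6, 124304656 to 124330527, plus strand) measured 5.95, 7.14, 6.47 and 6.66 CPM in CD5L KO mice and 8.93, 9.40, 10.3, 8.48 and 5.48 CPM in WT mice. All but 1 WT kidney lay above the CD5L KO kidneys. Its log2 fold change of -0.38 (SE 0.164) did not pass (edgeR adjusted p = 0.159), but it did without WT replicate 5 (-0.51, adjusted p = 0.0281).

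Msr1 (ENSMUSG00000025044, chromosome 8, 39581685 to 39642673, minus strand), the class A macrophage receptor, was 16.5 ± 1.37 CPM (SD, n = 4) in CD5L KO mice and 15.9 ± 4.06 CPM (SD, n = 5) in WT mice. Scarb1 (ENSMUSG00000037936, chromosome 5, 125277087 to 125341094, minus strand) was 52.6 ± 5.39 and 53.9 ± 3.66 CPM, and its log2 fold change of -0.04 had the smallest error of the genes tested (SE 0.0745). Stab2 (ENSMUSG00000035459, chromosome 10, 86841198 to 87008025, minus strand), the hyaluronan receptor of liver and lymphoid sinusoids, was 1.41 ± 0.496 and 1.56 ± 0.220 CPM, or 15 to 38 and 27 to 41 counts. Antisense genes overlap Stab2, the nearest sharing 141 exonic bases, and the strand setting of the counting is not stated.

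The lymphocyte receptors of the family did not differ between genotypes beyond their spread. Cd5 (ENSMUSG00000024669, chromosome 19, 10718143 to 10738974, minus strand) was 3.37 ± 1.37 CPM in CD5L KO mice and 3.04 ± 1.54 CPM in WT mice. Its neighbour on the chromosome, Cd6 (ENSMUSG00000024670, chromosome 19, 10789341 to 10830058, minus strand), was 3.90 ± 1.32 and 4.21 ± 2.24 CPM. Their log2 fold changes were 0.15 (SE 0.352) and -0.11 (SE 0.333), so changes of this size were within the error. For the 5 genes Cd5, Cd6, Msr1, Scarb1 and Stab2, edgeR's adjusted p was 0.755 or more.

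Marco (ENSMUSG00000026390, chromosome 1, 120474538 to 120505024, minus strand), the class A receptor of marginal zone and alveolar macrophages, was near its detection limit. It had 5, 3, 25 and 20 counts in CD5L KO kidneys given PBS and 2, 19, 0, 0 and 4 counts in WT kidneys given PBS. It had 2, 3, 7, 6 and 12 counts in CD5L KO mice given rCD5L and 0, 2, 12, 8 and 10 counts in WT mice given rCD5L. The counts varied between 0 and 25 without a separation of the groups.

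**Figure D3:**
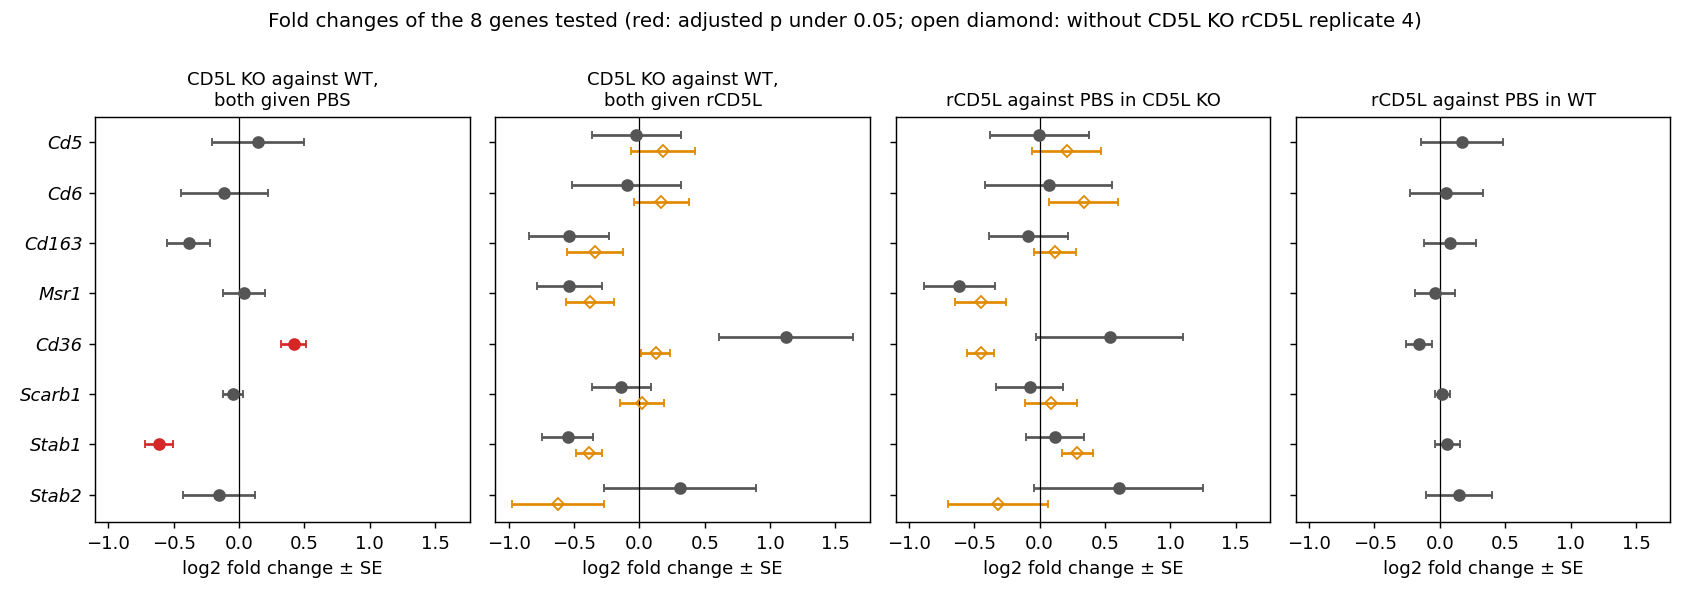
Log2 fold change and SE of the 8 genes tested in the 4 comparisons of 2 groups, with called genes in red and, as open diamonds, the values without CD5L KO rCD5L replicate 4. Stab1 and Cd36 are called in the PBS comparison and not in the other 3, and in CD5L KO mice given rCD5L the value for Cd36 changes from 0.54 to -0.45 when that kidney is left out.

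With rCD5L given to both genotypes, CD5L KO kidneys were compared with WT kidneys in the same way. None of the 8 genes tested was called, and of all 17360 genes 0% were called by edgeR, with 3090 at an unadjusted p under 0.05 and 150 called by DESeq2. None of the 8 separated the groups, where 7.51% of all genes did, and none did without CD5L KO rCD5L replicate 4, where 8.49% of all genes did. Stab1 measured 121, 126, 165, 64.0 and 130 CPM in CD5L KO kidneys and 178, 162, 166, 179 and 186 CPM in WT kidneys. A single CD5L KO kidney, replicate 3, lay within the WT range. The log2 fold change was -0.55 (SE 0.196, edgeR adjusted p = 0.259) and without CD5L KO rCD5L replicate 4 it was -0.39 (SE 0.101, adjusted p = 0.164). In the fit of 18 kidneys it passed (-0.39, SE 0.107, adjusted p = 0.0493). Fold changes fell with gene length here too (Spearman rho = -0.276 over 17360 genes, median -0.14 in the longest bin). With the length offset, in a fit that kept CD5L KO rCD5L replicate 4, Stab1 was at -0.37 (SE 0.205, adjusted p = 0.387). The length offset was not run without that kidney. The 9 endothelial markers had a median of -0.19, with 0 called and 3 at an unadjusted p under 0.05, and summed to 745.2 to 926.5 CPM in CD5L KO and 835.8 to 910.4 CPM in WT kidneys. Their part in the values of Stab1 was not tested.

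Cd36 in these groups turned on that kidney. It measured 135, 132, 124, 778 and 128 CPM in CD5L KO kidneys and 102, 122, 144, 116 and 103 CPM in WT kidneys. The log2 fold change was 1.12 (SE 0.511, edgeR adjusted p = 0.279) with all kidneys and 0.12 (SE 0.108, adjusted p = 0.581) without replicate 4. The same kidney had 6.66 CPM of Stab2, where the other 4 of its group had 0.831 to 1.87 CPM. Stab2 was at 0.31 (SE 0.578) with it and -0.62 (SE 0.350, adjusted p = 0.394) without it. Cd163 was at -0.54 (SE 0.307) and Msr1 at -0.54 (SE 0.247), and at -0.34 (SE 0.214) and -0.38 (SE 0.186) without it. In that kidney, the proximal tubule markers were high and the macrophage and T cell markers low, and their part in these values was not tested.

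To ask whether injected CD5L altered receptor expression where the animal made none, the rCD5L and PBS arms of the CD5L KO mice were compared. None of the 8 genes tested was called, and of 17467 genes 0% were called by edgeR, with 502 at an unadjusted p under 0.05 and 10 called by DESeq2. None of the 8 separated the groups, against 2.35% of all genes. Msr1 was 17.4, 17.3, 14.5 and 16.7 CPM with PBS and 7.40 and 5.67 CPM in rCD5L replicates 3 and 4 and 12.2 to 14.6 CPM in the other 3 rCD5L kidneys. A single rCD5L kidney, replicate 5, reached the PBS range, at its lower end. The log2 fold change was -0.61 (SE 0.268, edgeR adjusted p = 0.897), and -0.45 (SE 0.195, adjusted p = 0.763) without replicate 4. Without replicate 3, which had the second lowest TMM factor of the 19 kidneys (0.874), it was -0.50 (SE 0.266, adjusted p = 0.881). The 10 macrophage markers summed to 2016 to 3274 CPM with PBS and 2590 to 2975 CPM with rCD5L without that kidney, so the sums overlapped, and their part in the values of Msr1 was not tested.

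Cd36 changed its direction in this comparison. With all 9 kidneys, the log2 fold change was 0.54 (SE 0.561, edgeR adjusted p = 0.901). Without replicate 4, the 4 remaining rCD5L kidneys at 124 to 135 CPM all lay below the 4 PBS kidneys at 160.0 to 194 CPM, a log2 fold change of -0.45 (SE 0.104, edgeR adjusted p = 0.763). In these 8 kidneys, 5.13% of all genes separated the groups. Stab1 was at 0.12 (SE 0.223) with all kidneys and 0.29 (SE 0.118, adjusted p = 0.763) without replicate 4, when its levels were 121 to 165 CPM against 103 to 120 CPM, without overlap. None of these passed after adjustment. The CD5L KO kidneys given PBS are the same animals that were compared with WT mice above, so a low Stab1 or a high Cd36 in them enters both comparisons. Markers of the epididymis, a tissue outside the kidney, stood apart too. All 5 that could be tested of 7 had fold changes above 0, with a median of 1.39 with or without replicate 4, and 0 were called by edgeR, with 4 at an unadjusted p under 0.05. Their sum was 8.03 to 22.25 CPM with PBS and 23.95 to 62.05 CPM with rCD5L. Their part in the values of the receptors was not tested.

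**Figure D4:**
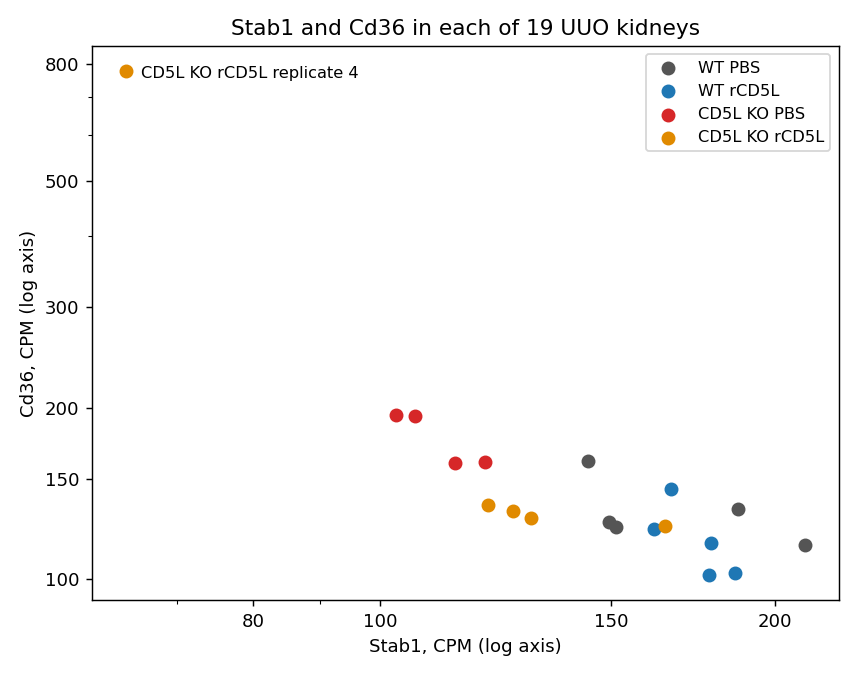
Stab1 and Cd36 in CPM on log axes, with 1 point per kidney coloured by group. The 4 CD5L KO kidneys given PBS lie at the upper left of the main cloud, with Stab1 at 103 to 120 CPM and Cd36 at 160.0 to 194 CPM, 4 of the 5 CD5L KO kidneys given rCD5L lie below them in Cd36, and replicate 4 lies far from the other 18 with Stab1 at 64.0 CPM and Cd36 at 778 CPM.

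In WT mice, the rCD5L and PBS arms were compared in the same way. None of the 8 genes was called, and of 17455 genes 0% were called by edgeR, with 2797 at an unadjusted p under 0.05 and 542 called by DESeq2. None of the 8 separated the groups, against 3.6% of all genes, and none had an unadjusted p under 0.05. Cd36 was 117 ± 17.2 CPM with rCD5L and 132 ± 17.7 CPM with PBS (SD, n = 5 each), a log2 fold change of -0.16 (SE 0.102, edgeR adjusted p = 0.470), which was the lowest adjusted p of the 8. Stab1 was at 0.06 (SE 0.0944), Msr1 at -0.04 (SE 0.150) and Scarb1 at 0.02 (SE 0.0561). The errors were wider for Cd163 (0.08, SE 0.200), Stab2 (0.15, SE 0.256), Cd6 (0.05, SE 0.279) and Cd5 (0.17, SE 0.316). The 5 tested epididymis markers were all above 0 here too (median 0.81, 0 called, 4 at an unadjusted p under 0.05), with sums of 12.2 to 25.3 CPM with PBS and 16.5 to 40.4 CPM with rCD5L.

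Whether rCD5L acted differently in the 2 genotypes was tested as an interaction over all 19 kidneys, which is also the test of whether the genotypes differed by another amount with rCD5L than with PBS. None of the members was called, and of 18454 genes 0% were called by edgeR, with 1154 at an unadjusted p under 0.05 and 0 by DESeq2. Msr1 had the lowest p of the members (-0.56, SE 0.312, adjusted p = 0.731), but without CD5L KO rCD5L replicate 4 it was at -0.41 (SE 0.260, adjusted p = 0.853) and Cd36 had the lowest. The interaction for Cd36 was 0.72 (SE 0.582) and without that kidney -0.29 (SE 0.154, adjusted p = 0.853). For Stab1 it was 0.08 (SE 0.246) and 0.23 (SE 0.151). Marco passed the low-count filter here and was at -1.46 (SE 1.29), and at -1.61 (SE 1.30) without the kidney. The value for Cd5l cannot be estimated, since CD5L KO mice had 0 counts in both arms.

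The wider family was described from lists taken by name, beginning with 16 other genes with an SRCR domain, of which 15 were in the table and 13 could be tested between CD5L KO and WT mice given PBS. Of these, 1 rose and 3 fell, with a median log2 fold change of -0.28, where the median of all genes tested was 0.00 and 10.5% were called. Loxl2 and Loxl3, lysyl oxidases that cross-link collagen, fell (-0.59, SE 0.108, edgeR adjusted p = 0.00774, and -0.56, SE 0.165, adjusted p = 0.0497). Lgals3bp, a secreted galectin-3-binding glycoprotein, fell (-0.46, SE 0.0966, adjusted p = 0.0130), with 228 ± 28.8 CPM (SD, n = 4) in CD5L KO and 311 ± 33.6 CPM (SD, n = 5) in WT kidneys. Cfi, the complement protease factor I, rose (0.48, SE 0.105, adjusted p = 0.0150). Loxl3 was not called with the length offset or with the deposited FPKM and limma, and the median of the list was -0.27 with the first and -0.08 with the second. With all 19 kidneys in 1 fit, 0 genes of this list, of the other receptors or of the lipid partners described next were called, and with 18 kidneys 4, 4 and 0.

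Of 28 other scavenger and endocytic receptors, 25 were tested, 1 rose and 6 fell, with a median of -0.19. Mertk, a receptor kinase for the clearance of dying cells, fell to 44.0 ± 2.61 CPM in CD5L KO from 57.3 ± 3.67 CPM in WT mice (-0.39, SE 0.0630, edgeR adjusted p = 0.00575), and its relative Axl fell too (-0.34, SE 0.0855, adjusted p = 0.0259). The large endocytic receptor Lrp1 fell (-0.53, SE 0.0878, adjusted p = 0.00625), as did the collagen receptor Mrc2 (-0.48, SE 0.0710, adjusted p = 0.00497). Olr1, the receptor for oxidised LDL, fell from 6.58 ± 1.25 CPM to 3.89 ± 0.939 CPM (-0.76, SE 0.193, adjusted p = 0.0274), and Pear1 was at -0.42 (adjusted p = 0.00625). Cd14, the co-receptor for lipopolysaccharide, rose (0.23, SE 0.0606, adjusted p = 0.0309), but was not called with the length offset. Havcr1, the tubular injury receptor KIM-1, was at 667 ± 96.4 CPM in CD5L KO and 531 ± 74.4 CPM in WT mice and did not pass with edgeR (0.32, SE 0.115, adjusted p = 0.0962), but was called with DESeq2.

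Of 12 tested partners of CD36 and SCARB1 in lipid handling, 3 rose and 0 fell, with a median of 0.24. They were the fatty acid carrier Fabp4 (0.49, SE 0.130, edgeR adjusted p = 0.0338), the caveolar protein Cav1 (0.24, SE 0.0669, adjusted p = 0.0396) and the lipid droplet coat Plin2 (0.23, SE 0.0634, adjusted p = 0.0361). Fabp4 also stands in the adipose list. With the deposited FPKM and limma, 0 of the 12 were called, and with the length offset Cav1 and Plin2 were not. Pparg, the nuclear receptor that drives Cd36 in adipocytes, was at 0.44 (SE 0.159) and did not pass with edgeR (adjusted p = 0.0954), but was called with DESeq2. The liver X receptor axis, which is known to drive Cd5l, with its lipid synthesis genes had 0 of 11 called by edgeR, 0 at an unadjusted p under 0.05, and a median of 0.00. Its closest were Apoe (-0.20, SE 0.141, adjusted p = 0.398) and Nr1h3 (0.10, SE 0.0752, adjusted p = 0.411). Of 5 genes for IgM, its carriers and its receptors, 0 were called and 0 had an unadjusted p under 0.05, with Fcmr, the IgM receptor, at -0.68 (SE 0.360, adjusted p = 0.249) and Pigr, the transporter of polymeric antibodies, at 0.13 (adjusted p = 0.566). Ighm itself ranged widely, with 150 ± 97.6 CPM (SD, n = 4) and 158 ± 177 CPM (SD, n = 5).

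**Figure D5:**
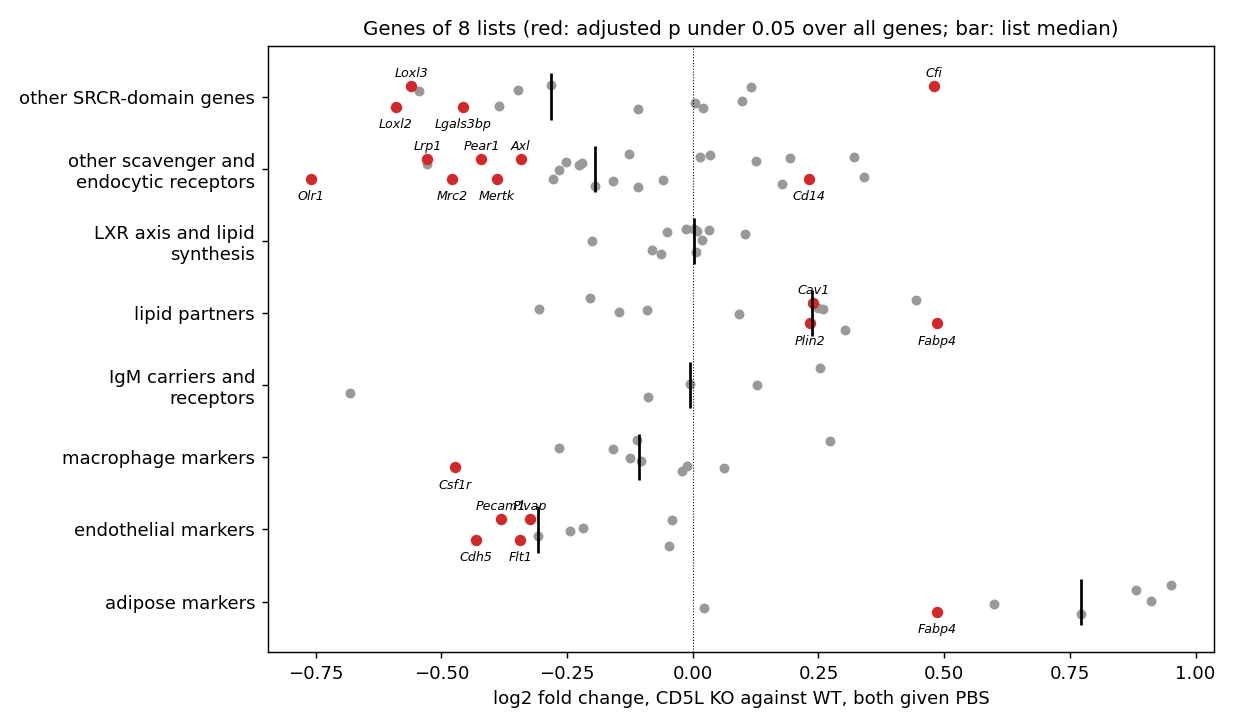
Log2 fold change of CD5L KO against WT mice given PBS for the tested genes of 8 lists, with called genes named in red and the list median as a bar. The medians are -0.28 for other SRCR-domain genes, -0.19 for other receptors, 0.24 for lipid partners, -0.31 for endothelial and 0.77 for adipose markers, and the liver X receptor axis lies close to 0.

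In the other 4 comparisons, 0 genes of these lists were called by edgeR. With both genotypes given rCD5L, the medians were -0.28 for the other SRCR-domain genes, -0.34 for the other receptors and 0.49 for the lipid partners, with 1, 5 and 5 genes at an unadjusted p under 0.05. Without CD5L KO rCD5L replicate 4, they were -0.12, -0.20 and 0.23, with 1, 9 and 4 such genes and 0 called. Plin2 was at 0.66 (SE 0.211, edgeR adjusted p = 0.259) and, without that kidney, at 0.60 (SE 0.206, adjusted p = 0.216), and Fabp4 at 0.59 (SE 0.182, adjusted p = 0.259) and 0.44 (SE 0.139, adjusted p = 0.202). Neither passed in either fit. With all kidneys, all 7 adipose and all 9 proximal tubule markers were above 0 in this comparison, with medians of 0.66 and 1.47 and 0 called. Without that kidney, the medians were 0.71 and 0.32, again with 0 called. Their part in the values of Plin2 and Fabp4 was not tested. In WT mice given rCD5L, the medians of the same lists lay between -0.07 and 0.03. Gpihbp1, which anchors lipoprotein lipase to capillaries, was at -0.61 (SE 0.119, edgeR adjusted p = 0.104) there.

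Genes whose level followed a receptor from kidney to kidney were ranked by Pearson's r over log2 CPM centred on the group means, among 15684 genes, as a description with no test. Over all 19 kidneys, the values share depth and the odd kidney, so the 18 without it are given too. Msr1 was most like Cd38, an ectoenzyme of leukocytes, in both (r = 0.945 and 0.907). Stab1 was most like Loxl3 in both (0.956 and 0.853). Cd5 had the T cell receptor constant gene Trbc2 among its 3 closest in both (0.885 and 0.813), and Cd6 had the class I genes H2-Q7, H2-Q5 and H2-Q4 closest over 18 kidneys (0.891, 0.891 and 0.884). Cd5 and Cd6 followed each other (0.848 and 0.761). Cd36 was closest to Snx27 over 19 kidneys (0.975) and to Tdrp over 18 (0.864), Cd163 to Six4 (0.877) and Vps51 (0.819), and Scarb1 to Nfix (0.977) and Pak4 (0.974). For these 3 genes, the closest gene changed when the kidney was left out. Stab2 was closest to Ush1c over 19 kidneys (0.921), and over 18 Ticrr was among its 3 closest (0.821).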

How the data were processed

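RNA of 19 whole UUO kidneys was measured by bulk RNA-seq in 4 groups, mapped by the sample labels. The count table deposited by the authors holds raw counts, and per the submitters' processing notes Trimmomatic, HISAT2 on GRCm38 and featureCounts were used (versions not given in the sources used here) on paired reads of random-primed libraries. A table of FPKM values for these genes was deposited by the authors too. Strand setting and treatment of reads matching several places are not given in the sources used here. In GENCODE vM21, 9 of the 10 genes have the deposited start and end and 8 the deposited length.

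The main test was that of edgeR 4.0.16 in R 4.3.3 (filterByExpr with a minimum count of 10, TMM, glmQLFit, glmQLFTest), the 2 groups compared in each fit and all groups in the interaction, with Benjamini-Hochberg adjustment over all genes tested. Levels are TMM-scaled CPM, with a prior count of 2 on the log2 scale. The alternatives tried were RLE factors, DESeq2 1.42.0, all kidneys in 1 fit, no filter, a block for the replicate number, deposited FPKM with limma 3.58.1 (pseudocount 1), a gene length offset (lowess span 0.3), 18 kidneys in 1 fit (both chosen after seeing the data) and leaving out each replicate. Tests were checked on simulated counts for CD5L KO against WT mice given PBS only, with a constant spread and no odd kidney. The other comparisons, the interaction and the fits of 18 or all kidneys were not simulated. Nothing says whether mice shared litters or cages. Per same-group pair, chi-square was at least 7.07 per degree of freedom over 36 pairs, so each kidney counted once.

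The 10 genes and all lists were chosen with earlier results of these data known. The text names every member, up to 4 called genes per list and comparison with the largest change, or else up to 2 with the smallest p, and, of the 3 genes most like each member of at least 1 CPM, 1 or more. Other genes named (Mertk, Axl, Cd14, Havcr1, Pparg, Ighm, Nt5dc2 and marker genes) were chosen after their values were seen. Protein sequences were not used here. Some results were left out and are not reported here.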

Additional observations from a re-analysis of the deposited data

Results flagged for a closer look

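Within the groups, the highest or lowest kidney was tested by its gap to the nearest kidney as a share of the group's range, over 38 combinations of gene and group, and 5 exceeded Dixon's critical value, where chance flags about 1 in 20. Cd36 was 777.9 CPM and Stab2 6.66 CPM in CD5L KO rCD5L replicate 4, each the highest of its group. The main fold changes printed above that use this kidney are given with and without it. Cd6 was 8.14 CPM in WT PBS replicate 1, where the other 4 kidneys lay between 2.70 and 3.97 CPM. Cd5 was 5.41 CPM in CD5L KO PBS replicate 1, where the other 3 lay between 2.58 and 2.85 CPM. Marco was 0.790 CPM in WT PBS replicate 2, or 19 counts, where the other 4 had 0 to 4 counts.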

How the results depend on the processing

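The number of the 10 genes called between CD5L KO and WT mice given PBS was 2. It was 0 with all 19 kidneys in 1 fit, and 1 to 3 when a kidney was left out (1 without WT PBS replicate 4). With both genotypes given rCD5L it was 0, 1 with all 19 kidneys in 1 fit, which was Cd5l, and 2 with 18 in 1 fit, Cd5l and Stab1. In the other 3 comparisons it was 0 in every alternative run. Over all genes, edgeR called 1850 genes with PBS, against 12 with all 19 kidneys in 1 fit, 742 with 18, 2622 with DESeq2, 2132 with the block and 1015 to 2062 when a kidney was left out, where CD5L KO PBS replicate 1 (1038), WT PBS replicate 2 (1121), WT PBS replicate 4 (1015) and CD5L KO PBS replicate 2 (1215) moved it most. With rCD5L in both genotypes it called 0, against 1291 with all 19 kidneys in 1 fit, 679 with 18 and 150 with DESeq2. For rCD5L in WT mice it called 0, against 542 with DESeq2, 137 with no filter and 39 without WT PBS replicate 1.

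Among 785 alternative values of 41 single-gene results, 7 crossed the threshold, 7 reversed by more than 1 SE, and 81 changed sign in all. When a kidney was left out, Cd6 between CD5L KO and WT mice given PBS ranged from -0.31 to 0.28 (reversed without WT PBS replicate 1). Reversed without CD5L KO rCD5L replicate 4 were Stab2 with rCD5L in both genotypes (-0.62 to 0.53), Cd36 with rCD5L in CD5L KO mice (-0.45 to 0.71), and Cd36 (-0.29 to 0.89) and Stab2 (-0.47 to 0.69) in the interaction. With 18 kidneys in 1 fit, Stab2 with rCD5L in both genotypes (-0.62) and Cd36 with rCD5L in CD5L KO mice (-0.45) reversed too. The cause was not tested. For Stab1 between CD5L KO and WT mice given PBS, adjusted p ranged from 6.86e-06 to 0.170 over 17 alternatives, and for Cd36 from 0.00109 to 0.790. No filter on low counts added Cd5l.

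Correlations of same-numbered deviations ranged from -0.216 to 0.280 over the comparisons. For rCD5L against PBS in CD5L KO mice they were 0.023 to 0.280. There, and between genotypes given PBS, 2 of 4 kidneys were most like the kidney of their own number. With both genotypes given rCD5L, and between the arms in WT mice, 0 of 5 were. Whether the replicate number pairs the kidneys was not tested. With the number as a replicate block, 3 genes were called between CD5L KO and WT mice given PBS, Cd163 being added (-0.51, adjusted p = 0.0326), and 0 in the others. In the liver X receptor list, Apoe was called with the block. Depth limits Cd5l, Marco and Stab2, with at most 15, 25 and 87 counts in a kidney.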
